A study of Mus musculus with 24 samples.

Results

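MicroRNAs (miRNAs) of the normal mammary gland were compared between 6 and 8 weeks of age, over all miRNAs in the deposited count table. The 6 libraries of this comparison, out of 24 in the series, were chosen by their labels. They came from 3 FVB mice sacrificed at week 6 and 3 sacrificed at week 8, the controls without the transgene in a study of PyMT mice, in which the MMTV promoter drives the polyoma middle T oncogene in mammary epithelium. No allele or agent was given to either group, so that they differ by age alone as far as the labels say. Total RNA of snap-frozen whole mammary tissue was used, without sorting of cells, and neither the gland position nor the stage of the estrous cycle was given in the sources used here. In RNA of whole tissue, fewer cells of a type and less miRNA per cell cannot be told apart.

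miRNAs are RNAs of about the length of a siRNA that guide the silencing machinery to messenger RNAs, mainly through the bases that follow the first one, the seed. In the FVB mouse these weeks fall in puberty, when ovarian hormones drive the mammary ducts to grow through the fat pad. A whole gland of this age holds ductal epithelium, fat, fibroblasts, vessels, blood and often a lymph node. Many miRNAs mark 1 of these cell types. Others belong to imprinted clusters, in which only the copy from 1 parent is transcribed. The largest such cluster in the mouse lies in the Dlk1-Dio3 domain of chromosome 12, where the miRNAs are made from the maternal copy together with the noncoding RNAs Meg3, Rian and Mirg. Its miRNAs are abundant in embryo, placenta and newborn tissues and decline after birth in many organs.

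No miRNA passed an adjusted p-value under 0.05 between week 8 and week 6 (0 of 237 tested, which is 0%, by the quasi-likelihood F test of edgeR, with p-values adjusted by the method of Benjamini and Hochberg). The smallest adjusted p-value was 0.170 in edgeR, for miR-380. At an unadjusted p under 0.05 there were 24 miRNAs, 2 with a higher level at week 8 (0.844% of those tested) and 22 with a lower level (9.28%). Of these 22, 18 belonged to the Dlk1-Dio3 domain, and 3 of the others were muscle miRNAs that differed strongly between the libraries of week 6. With the Wald test of DESeq2 7 miRNAs passed the adjusted threshold and with the classic exact test of edgeR 5 did. In both tests these included miR-1, miR-133a, miR-133b and miR-380. The Wald test also gave miR-136, miR-337 and miR-483, and the exact test miR-539. Directions below are therefore of fitted values, given with their standard errors (SE).

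The total count per library was between 1949948 and 3486314 at week 6 and between 1626022 and 3560156 at week 8, and 280 to 308 miRNAs had at least 1 count. A count of 3 corresponded to 0.843 to 1.84 CPM, the count relative to the total of its library, before scaling. All levels below are in CPM after scaling by the trimmed mean of M values (TMM), which sets the bulk of the miRNAs equal between libraries. Replicates 1 and 2 of week 6 and of week 8 were sequenced on lane 1 and replicate 3 on lane 2, so that lane was balanced between these weeks. The liver miRNA miR-122 and the neuron miRNA miR-124 were at 1.32 CPM or below in every library, and the epithelial, stromal and endothelial miRNAs of the gland were present in all 6.

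Mature sequences from the Dlk1-Dio3 domain are shown here because this cluster held most of the miRNAs with the lowest p-values. Letters are from RefSeq (GRCm38.p6), 5′ to 3′, all from the plus strand of chromosome 12, with the seed (bases 2 to 8) in capitals. The deposited table has 1 count for each miRNA name and does not separate the 5p and 3p arms, so both arms are given for the first 6 miRNAs. The last pair of sequences is shown for a shared seed.
miR-127-5p: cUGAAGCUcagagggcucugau
miR-127-3p: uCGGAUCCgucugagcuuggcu
miR-434-5p: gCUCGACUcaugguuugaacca
miR-434-3p: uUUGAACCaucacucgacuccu
miR-136-5p: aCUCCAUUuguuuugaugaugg
miR-136-3p: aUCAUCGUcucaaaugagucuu
miR-337-5p: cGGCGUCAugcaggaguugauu
miR-337-3p: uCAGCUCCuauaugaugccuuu
miR-673-5p: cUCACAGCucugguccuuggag
miR-673-3p: uCCGGGGCugaguucugugcacc
miR-380-5p: aUGGUUGAccauagaacaugcg
miR-380-3p: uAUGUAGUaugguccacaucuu
miR-379-3p: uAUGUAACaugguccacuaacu
miR-411-3p: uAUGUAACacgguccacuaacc
miR-127-3p lies at chr12:109592888-109592909 and miR-380-3p at chr12:109711842-109711863. The seeds of the first 12 sequences all differ from each other. miR-379-3p and miR-411-3p share a seed. Over the tested miRNAs of the domain, RefSeq gave 72 mature sequences of 38 miRNAs with 68 distinct seeds, and only 4 seeds were shared by 2 or more miRNAs. The miRNAs of this cluster therefore had mostly different seeds although they lie side by side.

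The Dlk1-Dio3 miRNAs were lower at week 8. The list of this domain held 51 miRNAs of the table, of which 48 had counts in the 6 libraries. By RefSeq position 3 further miRNAs of the table lie between Dlk1 and Dio3 and were not on the list. Of these, miR-432 and miR-453 had no counts and miR-493 had 45, at 9.09, 7.22 and 1.05 CPM at week 6 and at 0.982, 0.445 and 0.631 CPM at week 8. The mean CPM was lower at week 8 for all 48 listed miRNAs with counts, against 177 of the 347 miRNAs with counts in the whole table. Of the 48, 39 were abundant enough to be tested, and the other 9 had between 1 and 33 counts in total. The log2 fold change of week 8 against week 6 was below 0 for each of the 39, from -2.51 to -0.42, with a median of -0.95. Over all 237 tested miRNAs the median was 0.037, and 112 were below 0. Of the 39, 18 had an unadjusted p under 0.05 and 0 passed the adjusted threshold. In 26 of the 39 the 3 libraries of week 8 lay all below the 3 of week 6, and over all tested miRNAs this was so for 29 (12.2%).

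**Figure D1:**
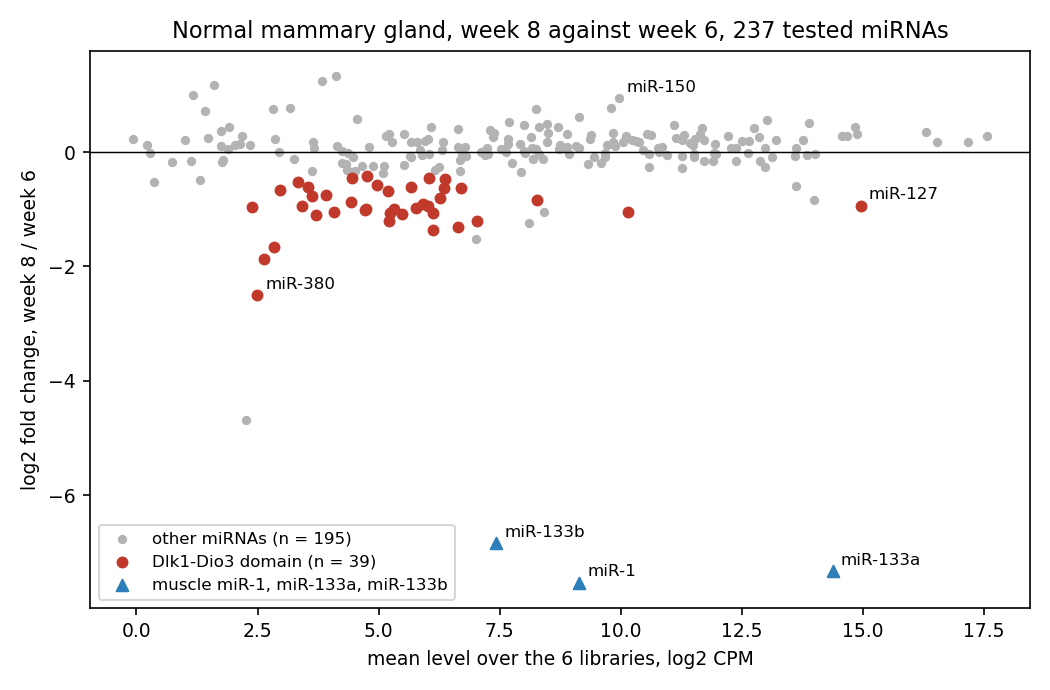
The log2 fold change of week 8 against week 6 (vertical axis) is plotted against the mean level in log2 CPM over the 6 normal libraries (horizontal axis) for the 237 tested miRNAs, 1 point each. The 39 Dlk1-Dio3 miRNAs (red), of which miR-127 has the highest level, all lie below 0, and the muscle miRNAs (blue triangles) lie at about -7.

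The summed level of the domain also separated the weeks. At week 6 it was 46152, 42732 and 47115 CPM in replicates 1, 2 and 3. At week 8 it was 14565, 26791 and 29677 CPM. The weeks did not overlap, and the spread was wider at week 8, where replicate 1 was the lowest. That library had the lowest level of the 6 for 36 of the 39 tested miRNAs of the domain, and it was also the most deeply sequenced one. The share of all tested miRNAs with their lowest level there was not counted. Without it the median log2 fold change of the domain was -0.67, against -0.95 with it. The sum without miR-127 was 4378, 3406 and 3771 CPM at week 6 and 1266, 2064 and 2688 CPM at week 8, so that the separation did not depend on this miRNA.

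miR-127 made up most of the domain's counts and was among the 5 most counted miRNAs of the gland. It lies antisense within Rtl1, a retrotransposon-derived gene of the placenta that is expressed from the paternal copy and that miR-127 can cleave. Its level was 41774, 39326 and 43345 CPM at week 6 and 13299, 24727 and 26989 CPM at week 8. The lowest library of week 6 was above the highest of week 8. The means were 41482 ± 2025 and 21671 ± 7338 CPM (SD, n = 3), and the log2 fold change was -0.94 (SE 0.28, adjusted p = 0.255 in edgeR). It took between 1.14% and 4.72% of the counts of a library.

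miR-434, next to miR-127 in the Rtl1 antisense group, was at 1846, 1339 and 1377 CPM at week 6 and at 461, 737 and 1011 CPM at week 8 (log2 fold change -1.05, SE 0.32). miR-136, from the same group, was at 224, 151 and 172 CPM and at 64.2, 74.7 and 97.9 CPM (log2 fold change -1.21, SE 0.28). For both miRNAs all libraries of week 8 were below those of week 6. miR-337 was at 128, 96.5 and 77.5 CPM at week 6 and at 24.9, 42.7 and 50.5 CPM at week 8 (log2 fold change -1.36, SE 0.35). miR-673 was at 72.7, 61.9 and 48.5 CPM and at 19.6, 32.9 and 34.1 CPM (log2 fold change -1.08, SE 0.31). These miRNAs share no seed, and each had its lowest value in replicate 1 of week 8.

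miR-380, of the large group between Rian and Mirg, had the lowest p-value of all miRNAs (adjusted p = 0.170 in edgeR). Its counts were low, 14, 30 and 37 at week 6 and 3, 4 and 4 at week 8, which corresponds to 7.49, 11.4 and 9.75 CPM and to 0.982, 1.78 and 2.53 CPM. The log2 fold change was -2.51 (SE 0.43). The values of week 8 are close to the floor of 3 counts, which limits how well the size of the difference is known. miR-539 had 29, 18 and 28 counts at week 6 and 7, 8 and 3 at week 8 (log2 fold change -1.87, SE 0.48). The other Dlk1-Dio3 miRNAs of lowest p without overlap were miR-666 (log2 fold change -1.06), miR-668 (-1.01) and miR-485 (-0.90), each with an adjusted p of 0.255 in edgeR.

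**Figure D2:**
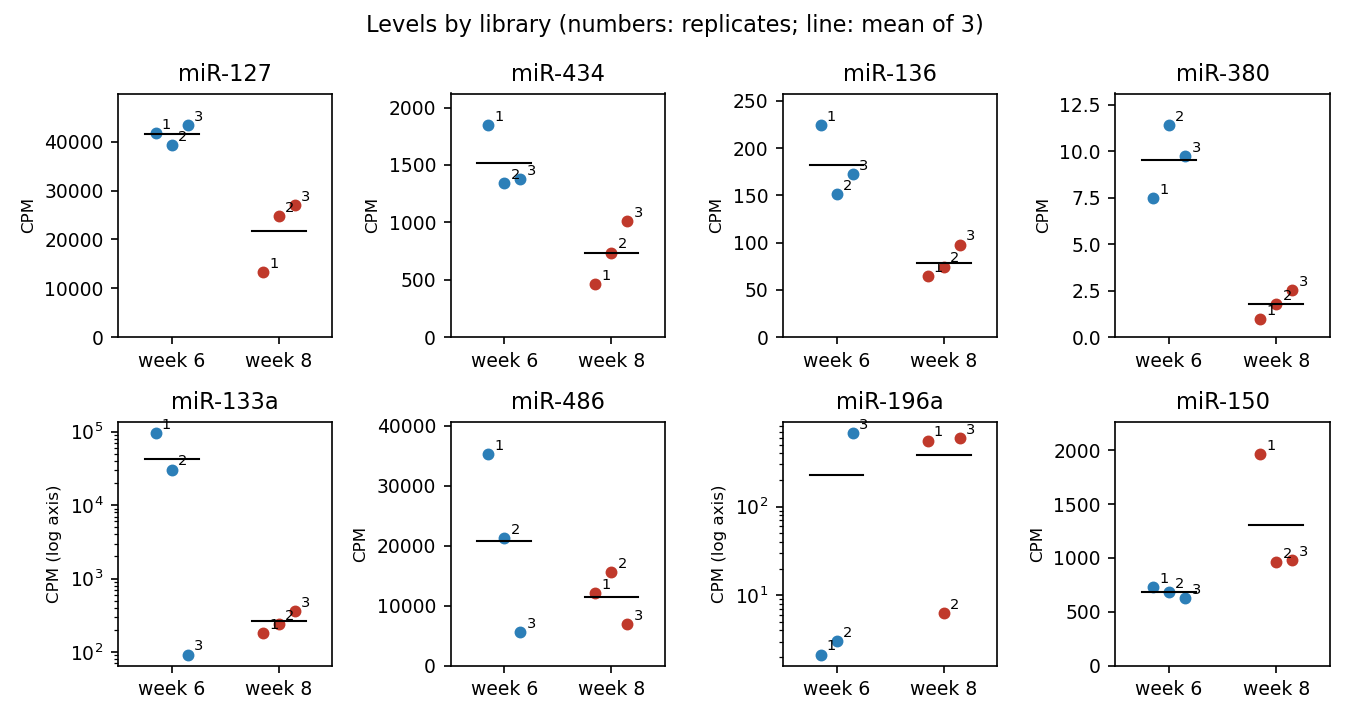
The level in CPM of 8 miRNAs is plotted for each of the 6 normal libraries, with week 6 in blue, week 8 in red, the replicate number beside each point and a line at the mean of 3. The axes of miR-133a and miR-196a are logarithmic. miR-127, miR-434, miR-136 and miR-380 separate the weeks, whereas miR-133a and miR-196a split the libraries within a week.

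The position along the domain was compared using the RefSeq coordinates (GRCm38.p6). Of the 51 listed miRNAs, 49 could be placed. The 9 tested miRNAs before Rian, from Meg3 (chr12:109540996-109571729) to Rtl1, had a median log2 fold change of -1.07, and 8 of them did not overlap, where 29 of all 237 tested miRNAs (12.2%) lay lower without overlap. The 2 tested miRNAs within Rian (chr12:109603945-109661716), miR-341 and miR-370, had -0.998 and -0.777. The 20 between Rian and Mirg had a median of -0.82 and the widest range, from -2.51 to -0.42, and 12 did not overlap. The low end of that range was formed by miR-380 (-2.51), miR-539 (-1.87) and miR-382 (-1.65). These had as few as 3, 3 and 2 counts in a library, and the next lowest was miR-381 (-1.07). The 7 within Mirg (chr12:109734981-109749458) had a median of -0.97, and 4 did not overlap. Lower fitted values were thus found in each stretch of the domain. The fold changes nearest to 0 were those of miR-667 (-0.42), miR-376c (-0.45) and miR-540 (-0.46), whose libraries overlapped. miR-376b and miR-376c are near-identical paralogs, and reads may have been split between them.

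**Figure D3:**
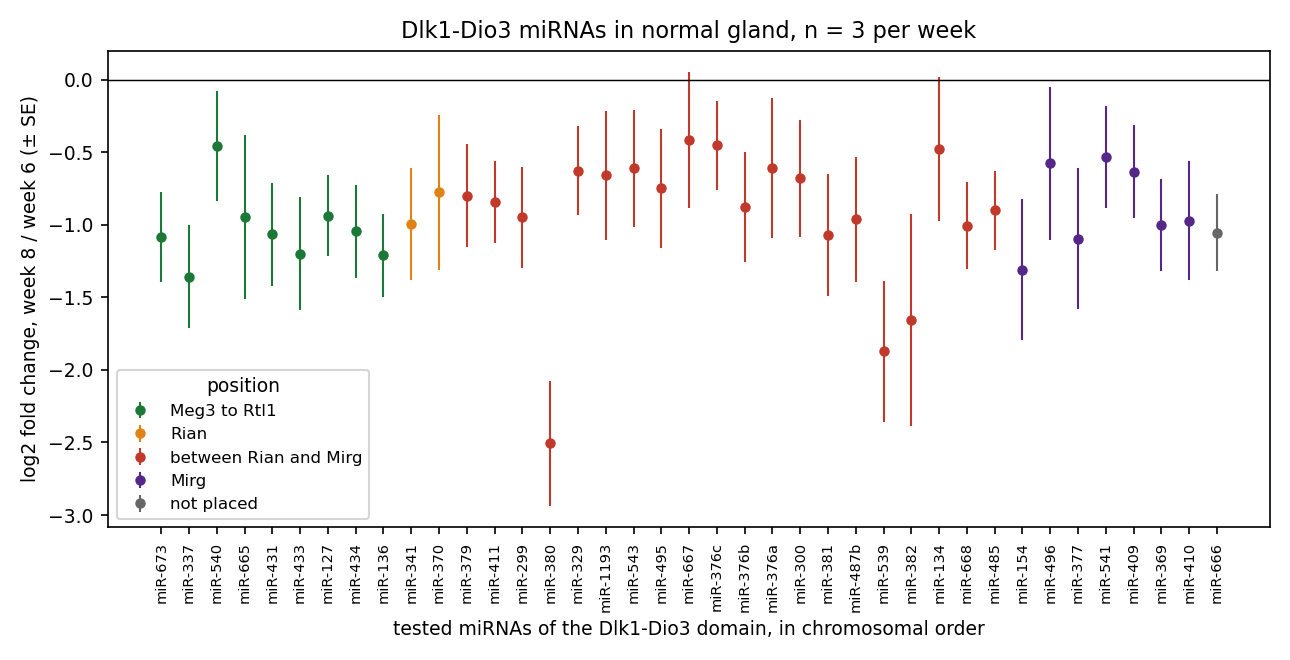
The log2 fold change of week 8 against week 6 with its SE (bars) is plotted for the 39 tested Dlk1-Dio3 miRNAs in chromosomal order, coloured by stretch of the domain, with n = 3 libraries per week; miR-666 was not placed. The points lie between -2.51 and -0.42, and the bars stay below 0 for all except miR-667 and miR-134.

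The difference was seen on both sequencing lanes. In lane 1, the 2 libraries of week 8 lay below the 2 of week 6 for 36 of the 39 miRNAs, and for 61 of all 237 tested (25.7%). In lane 2 the single library of week 8 was below that of week 6 for 36 of the 39, and for 44.7% of all tested. For miR-127 the difference of log2(CPM + 2) was -1.16 in lane 1 and -0.68 in lane 2, and for miR-380 it was -1.75 and -1.38. With the replicate number as a block the domain's median was -0.96 and 20 of the 39 had an unadjusted p under 0.05, and again 0 passed the adjusted threshold. The block raised the number of miRNAs at an unadjusted p under 0.05 from 24 to 45 over all tested miRNAs, 23 lower and 22 higher at week 8.

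The later normal glands, scaled together with these, had mean levels of most miRNAs of the domain below those of week 8. The mean CPM of each of the 39 miRNAs was lower at week 10 and at week 12 than at week 6. It was also lower than at week 8 for 35 of the 39 at week 10 and for 38 at week 12. The shares of all tested miRNAs with a mean below that of week 6, or below that of week 8, were not counted. For 37 of the 39 the 3 libraries of week 10 all lay below those of week 6, and over all tested miRNAs this was so for 41 (17.3%). These comparisons share the libraries of week 6 and were not tested. The libraries of weeks 10 and 12 were divided between the lanes differently from those of weeks 6 and 8. Age and lane were therefore partly confounded in the comparisons with the later weeks, and the part of lane was not tested. On this scale the mean of miR-127 was 39371 ± 1695 CPM for week 6 and 20062 ± 6179 CPM for week 8 (SD, n = 3). It was 16419 ± 7093 CPM for week 10 and 12491 ± 3452 CPM for week 12. The means of week 8 and week 10 differed by less than these SDs. Scaled over all 24 libraries instead, the summed level of the domain was 13136, 26472 and 26980 CPM at week 8. It was 10412, 16415 and 25820 CPM at week 10 and 12223, 17178 and 10795 CPM at week 12. The libraries of both later weeks thus overlapped with those of week 8.

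Whether the difference between the weeks was particular to normal glands was tested against the PyMT mice of the same weeks. The paper stages their tissue as hyperplasia at week 6 and as adenoma or MIN at week 8. The difference of the log2 fold changes, normal minus tumor, passed the adjusted threshold for 0 of the 237 miRNAs, and 10 had an unadjusted p under 0.05 (4.22%) in edgeR. In the Dlk1-Dio3 domain 5 miRNAs had an unadjusted p under 0.05, which were miR-337, miR-380, miR-382, miR-543 and miR-666. Of these, miR-380 and miR-382 had as few as 3 and 2 counts in a library of the normal glands. The median of the domain was -0.25 in the PyMT samples, and 30 of the 39 were below 0, against 105 of all 237 tested. In 2 of the 39 the libraries of week 8 all lay below those of week 6, against 18 of all tested miRNAs (7.59%). The median difference between normal and PyMT was -0.62. Scaled over all 24 libraries, the summed level was 22827, 16650 and 18004 CPM in the PyMT mice of week 6 and 10426, 11325 and 18290 CPM at week 8. These values overlap between the weeks, and those of the normal glands of week 6, 40769, 39249 and 46364 CPM, lay above all of them. A difference of the age effect between normal glands and PyMT tissue was not shown for any single miRNA.

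**Figure D4:**
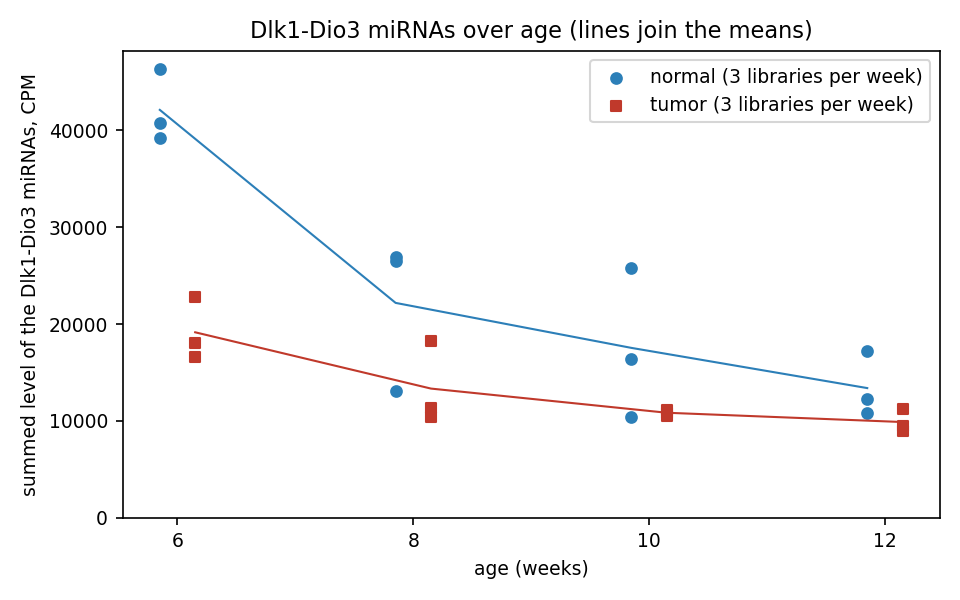
The summed level of the Dlk1-Dio3 miRNAs in CPM (vertical axis, from 0, scaled over 24 libraries) is plotted against age in weeks for normal glands (blue circles) and PyMT samples (red squares), 3 libraries each, with lines joining the means. The 3 normal libraries of week 6, from 39249 to 46364 CPM, lie above all others.

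The muscle miRNAs miR-1, miR-133a and miR-133b, which guide the growth and differentiation of muscle, had the largest fitted fold changes, but they separated the libraries of week 6 from each other rather than the weeks. miR-133a was at 95797 and 30524 CPM in replicates 1 and 2 of week 6, at 92.2 CPM in replicate 3, and at 183.05, 239 and 363 CPM at week 8. miR-1 was at 2468, 886 and 1.84 CPM at week 6 and at 5.24, 7.12 and 5.68 CPM at week 8. Replicate 3 of week 6 was thus below all libraries of week 8 for both. The log2 fold changes were -7.33 for miR-133a (SE 2.04), -7.53 for miR-1 (SE 2.07) and -6.84 for miR-133b (SE 2.02), with an adjusted p of 0.255 each in edgeR. Without replicate 3 of week 6 all of these and miR-483 passed the adjusted threshold, and without replicates 1 and 2 the values were 1.49, 1.68 and 1.39. miR-133a and miR-133b are nearly identical, and their reads may have been split. miR-206, a marker of skeletal rather than cardiac muscle, was listed at 6.95, 3.42 and 0 CPM at week 6 and at 0 CPM in all libraries of week 8.

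The 6 listed muscle miRNAs summed to 99046 and 31669 CPM in replicates 1 and 2 of week 6 and to between 97.2 and 375.1 CPM in the other 4 libraries. In replicate 3 of week 6, with the lowest miR-133a of all 6, the summed Dlk1-Dio3 level was 47115 CPM, the highest of the 6. For 34 of the 39 Dlk1-Dio3 miRNAs this library was above every library of week 8, a count that was not made over all tested miRNAs. Without replicates 1 and 2 of week 6 the median of the domain was -0.95. With miR-1, miR-133a and miR-133b left out of the tested miRNAs it was also -0.95. The library totals still held the muscle counts in that fit, and TMM trims such outlying miRNAs. Its median could therefore hardly move, and it does not show whether muscle in the tissue matters. Both alternatives were chosen after seeing the data. miR-486, which is made in red blood cells and in muscle, was at 35352, 21240 and 5633 CPM at week 6 and at 12133, 15574 and 6870 CPM at week 8. miR-451, a miRNA of red blood cells, was at 3307, 2937 and 2097 CPM at week 6 and at 3467, 4935 and 2745 CPM at week 8. Both were thus lowest at week 6 in replicate 3. miR-378, an intronic miRNA of Ppargc1b in fat and muscle, was at 27513, 13010 and 5103 CPM and at 19368, 6530 and 4222 CPM. These 3 miRNAs overlapped between the weeks. miR-483, from an intron of the imprinted growth factor gene Igf2, had 30, 30 and 1 counts at week 6 and 1, 0 and 1 at week 8. It was named after its values were seen, and its counts were high in the 2 libraries with high muscle miRNAs only.

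The 5 most counted miRNAs were miR-143, miR-10b, miR-148a, miR-10a and miR-127. miR-143, a miRNA of smooth muscle and other contractile or stromal cells, was at 162374, 189403 and 172744 CPM at week 6 and at 251543, 172490 and 209817 CPM at week 8 (log2 fold change 0.27, SE 0.21). It took 15.6% to 21.6% of the counts. miR-10b and miR-10a lie in the Hox clusters, whose genes set position along the body. They had log2 fold changes of 0.17 (SE 0.20) and 0.35 (SE 0.25). miR-148a, which is abundant in milk-producing epithelium, had 0.18 (SE 0.19). These 4 overlapped between the weeks, and none had an unadjusted p under 0.05.

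miR-196a and miR-196b, also of the Hox clusters, split the libraries within each week, though not evenly between the weeks. miR-196a was at 2.14, 3.04 and 673.5 CPM at week 6 and at 555, 6.23 and 585 CPM at week 8. miR-196b was at 126.7, 36.9 and 647 CPM at week 6 and at 536, 4.45 and 555 CPM at week 8. Each week thus held libraries with high levels of both and libraries with far less, and no library lay between 6.23 and 555 CPM for miR-196a. A similar split into high and low libraries was present in the other normal glands, with high values reaching down to 440 CPM. Scaled over all 24 libraries, miR-196a was at 519, 440 and 4.10 CPM at week 10 and at 2.86, 600 and 2.51 CPM at week 12. The fitted log2 fold changes of week 8 against week 6 were 0.75 (SE 2.10) and 0.43 (SE 1.49), with standard errors larger than the values. Both libraries of week 6 with high miR-133a had low miR-196a. Replicate 2 of week 8 had low miR-196a as well, with a low miR-133a of 239 CPM. The summed Dlk1-Dio3 level of that library, 26791 CPM, lay between those of the other libraries of week 8. The part of this split in the differences between the weeks was not tested, and it was noticed after the values were seen.

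Higher at week 8 without overlap were 9 miRNAs (3.80% of those tested). miR-150, a miRNA of mature lymphocytes, was at 726, 687 and 626 CPM at week 6 and at 1966, 965 and 980 CPM at week 8 (log2 fold change 0.94, SE 0.32, adjusted p = 0.277 in edgeR). Replicate 1 of week 8 stood above the other libraries of that week. miR-191, a broadly expressed miRNA, was at 5777, 6150 and 5652 CPM and at 8508, 7883 and 7045 CPM (log2 fold change 0.41, SE 0.15). These were the only miRNAs with a higher level at week 8 at an unadjusted p under 0.05. The others were miR-1964, miR-23a, miR-1982, miR-186, miR-671, miR-467d and miR-2133, with log2 fold changes from 0.094 to 1.17. Lower at week 8 without overlap and outside the Dlk1-Dio3 domain were 3 miRNAs, miR-194 (-0.24), miR-199b (-0.16) and miR-7a (-0.33). Among the other blood cell miRNAs, miR-142, of all leukocytes, had a log2 fold change of 0.31, miR-155 had 0.064 and miR-223, a myeloid miRNA, was listed at 0 in all 6 libraries.

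The miRNAs of the other cell types were described by list, beside the median of 0.037 over all tested miRNAs. Of the 10 epithelial miRNAs 0 were called, with 5 above and 5 below 0 and a median of 0.069. miR-205, of basal epithelium, was at 3044, 3393 and 5691 CPM at week 6 and at 1638, 3947 and 5325 CPM at week 8, and miR-200c, which keeps cells epithelial, had a log2 fold change of -0.039 (SE 0.30). The 3 fibroblast miRNAs had a median of -0.083, the 6 leukocyte miRNAs 0.079, the 6 adipocyte miRNAs 0.15 and the 3 erythroid miRNAs 0.33. miR-126, of endothelium, was at 25131, 22647 and 26738 CPM and at 40984, 26349 and 33846 CPM (log2 fold change 0.44, SE 0.21). Of the members of these lists miR-150 alone had an unadjusted p under 0.05. With the replicate number as a block this was also so for miR-200b, miR-183, miR-126 and miR-142, which were higher at week 8, and for miR-378, which was lower, with an adjusted p of 0.261 each in edgeR. Over all 237 tested miRNAs the block gave 45 at an unadjusted p under 0.05, 22 higher and 23 lower, so these members do not set the lists apart. The sign of the epithelial, erythroid, leukocyte and adipocyte medians changed when 1 library was left out. Among these, the epithelial median was -0.032 without replicate 1 of week 6 and -0.044 without replicate 3 of week 8, and the adipocyte median was -0.096 without replicate 1 of week 8.

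Other miRNA groups that have been linked to growth or hormone response also had 0 members called. The miR-29 family, which lowers collagens and other matrix genes, had a median of 0.50, with miR-29a at 17765, 11556 and 8246 CPM at week 6 and at 28837, 12922 and 11459 CPM at week 8. Without replicate 1 of week 8 this median was -0.039. With the replicate block miR-29a and miR-29b had an unadjusted p under 0.05 (log2 fold changes 0.45 and 0.48, adjusted p = 0.261 each in edgeR). The luminal or hormone receptor linked miRNAs miR-148a, miR-375, miR-342 and miR-22 had a median of 0.18. miR-212 and miR-132, listed for a reported part of the stroma in ductal outgrowth that was not examined here, had log2 fold changes of -0.20 (SE 0.45) and -0.079 (SE 0.34). The 8 tested let-7 miRNAs had a median of -0.055, with 7 below 0. The 9 members of the miR-17~92 and miR-106b~25 clusters, which promote proliferation, were all above 0, with a median of 0.14 and no library separation. Without replicate 1 of week 6 this median was -0.13, and without replicate 3 of week 8 it was -0.056. The 15 tested miRNAs of the Sfmbt2 intron, the other large imprinted miRNA cluster of the mouse, had a median of 0.13, with 10 above and 5 below 0, and many are near-identical copies. miR-210, which responds to low oxygen, had a log2 fold change of 0.022 (SE 0.20). The 5 Hox miRNAs had a median of 0.43, which rests partly on the split of miR-196a and miR-196b.

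**Figure D5:**
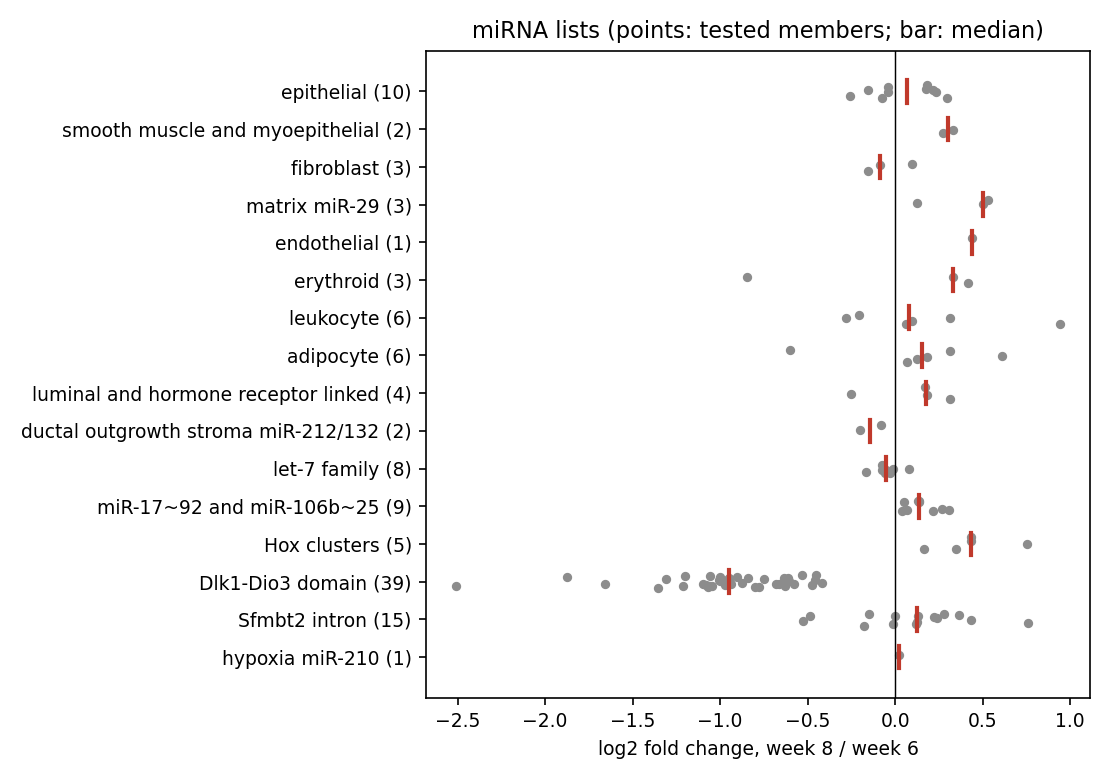
The log2 fold change of week 8 against week 6 is plotted for each tested member (grey points) of 16 miRNA lists, with the number tested in parentheses and a red bar at the median. The skeletal muscle list is not drawn. The Dlk1-Dio3 domain, with a median of -0.95, lies to the left of the other lists, with all of its points below 0.

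By the p-value of the difference between normal glands and PyMT tissue the first 3 miRNAs were miR-181a, miR-380 and miR-150. Their values in normal glands are from the fit of 6 libraries. The PyMT values and the differences are from the fit of 12 libraries, so they do not subtract exactly. miR-181a, which tunes receptor signals in developing lymphocytes, had a log2 fold change of -0.28 in normal glands and 0.49 in the PyMT samples, a difference of -0.74 (adjusted p = 0.969 in edgeR). miR-150 had 0.94 and -0.45, a difference of 1.43 (adjusted p = 0.969). For miR-380 the values were -2.51 and -0.28, but its level in the PyMT samples was between 0.807 and 3.49 CPM, near the floor.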

How the data were processed

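Small RNA libraries of normal mammary gland from 3 FVB mice at week 6 and 3 at week 8 were used. The authors aligned reads with Bowtie and deposited counts per miRNA without normalization; the labels name mm9 and the methods mm10, and no read positions were used here. Groups, weeks, replicate numbers and lanes came from the labels. Counts were tested with edgeR 4.0.16 in R 4.3.3 (TMM, quasi-likelihood test, Benjamini-Hochberg adjustment, threshold 0.05) on the 237 of 510 miRNAs that filterByExpr kept over 24 libraries and 8 groups. The SE is the log2 fold change divided by the square root of F. The difference between normal and PyMT used 1 fit of 12 libraries. Replicate pairs all differed beyond counting noise. The floor of 3 counts covers counting error only, whereas the SE and SD include differences between replicates. Deviations of same-numbered libraries of the 2 weeks from their group means had correlations of 0.18, 0.55 and 0.36. Those of differently numbered libraries were between -0.33 and 0.10, so pairing was weak for replicate 1. The numbers were treated as pairs in an alternative fit. Sequences and positions came from RefSeq, which matched 383 of 510 names.

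Named miRNAs were the 5 most counted, those without overlap between the weeks (at most 10 in each direction by lowest p), the 3 of lowest p for the difference from PyMT, and the lists. Members and lists were chosen with earlier results of these data known. Alternatives used DESeq2 1.42.0 and other scalings, filters, samples and covariates. The scripts were tested on simulated data. Python 3.11.15 drew the plots.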

Additional observations from a re-analysis of the deposited data

How the results depend on the processing

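The number of miRNAs past the adjusted threshold between week 8 and week 6 was 0 and became 7 with the DESeq2 Wald test, 5 with the classic exact test and 1 (miR-380) with all 24 libraries in the fit. Leaving out 1 library gave 0 to 4, with 4 only without replicate 3 of week 6 (miR-1, miR-133a, miR-133b and miR-483). The cause of these changes was not tested. The other scalings, filters, fits and covariates gave 0. With the replicate block it was 0 as well, and the pairing changed no call. The number without overlap was 38 and became 98 on lane 1 alone, where 2 libraries are compared with 2; lane 2 alone was not run, since 1 library against 1 always separates. The median of all tested miRNAs was -0.046 with library sizes only, that of fibroblast miRNAs -0.15, and that of leukocyte miRNAs 0.022, or 0.13 with DESeq2 size factors. Leaving out 1 library gave -0.038 to 0.033 for all tested, -0.055 to 0.20 for leukocyte, -0.016 to 0.26 for luminal, -0.12 to 0.28 for Sfmbt2 -0.044 to 0.19 for epithelial, -0.016 to 0.59 for erythroid, -0.096 to 0.32 for adipocyte, -0.039 to 0.75 for miR-29, -0.40 to 0.12 for miR-212 and miR-132, -0.21 to 0.043 for let-7, -0.13 to 0.42 for miR-17~92 and miR-106b~25, -0.035 to 0.065 for miR-210 and -1.12 to -0.67 for Dlk1-Dio3 miRNAs. Without replicates 1 and 2 of week 6, chosen after seeing the data, miR-1, miR-133a and miR-133b reversed to 1.68, 1.49 and 1.39, the muscle median was 1.49, the erythroid 1.04, the adipocyte 0.57 and the leukocyte 0.038. The lone library of week 6 is then assumed to vary like week 8. Depth limits miR-380 and miR-539, which had 3 to 8 counts per library at week 8. Of the 39 tested miRNAs of the domain, 5 had under 10 counts in a library, among them also miR-382, miR-665 and miR-487b.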
